A study of Mus musculus with 18 samples.

Results

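The P2 promoter of *Runx1* was viewed in 4C-seq from 2 neighbouring baits, P2, which lies over the promoter itself, and P2cc, which lies at a binding site of cohesin and CTCF just upstream of it. All fragments that the authors called significant for either bait were taken, categories 1 and 2 together, and the P2 list was set beside the P2cc list fragment by fragment. The P2 list held 309 *Dpn*II fragments and the P2cc list 314, which made 456 different fragments of the 1970 listed for the 6 baits of the series. Of these, 258 fragments of P2 and 268 of P2cc were category 1, the stricter of the categories in the lists. Category 2 fragments are those listed only in the wider set.

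Runx1 is a transcription factor that blood stem cells need in order to form, and its gene is transcribed from 2 promoters. The distal promoter, P1, and the proximal promoter, P2, give proteins that differ at their N-terminus, and the balance between them changes as blood develops. Enhancers can act on a promoter over long stretches of DNA when the chromatin folds so that they meet, and cohesin with CTCF holds many such loops. 4C-seq takes 1 restriction fragment as bait and records the fragments that ligated to it after cross-linking, and so gives the contacts of 1 site at a time.

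The study used HPC-7, a mouse line of multipotent blood progenitors grown with stem cell factor, and compared 6 baits in it: P1cc, P1, +24, +24cc, P2cc and P2. The cells carried no treatment or genotype that differed between baits. For P2 and for P2cc there were 2 replicate libraries each and 1 control each, made without ligase at the first ligation. Per the methods, the replicates were cells of 2 passages of this 1 line, and the baits were amplified from the same preparations, so the P2 and P2cc lists do not come from separate cultures. The deposited lists hold only fragments called in both replicates and carry no reads, so a call has no known depth and the replicates' spread cannot be given. Intervals of shares below are 95% Wilson intervals, those of differences between shares are 95% Newcombe intervals, and both cover counting error only. Neighbouring fragments are not independent, because each was called in a window of 3 fragments.

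On the mm10 assembly *Runx1* lies on the minus strand of chromosome 16 (chr16:92601466-92826074), so upstream means a higher coordinate. The start site of P1 is at 92826074 and that of P2 at 92697329, 128.745 kb apart. The P2 bait (chr16:92697183-92697598) lay across the start site of P2, in the first exon of the P2 transcript and the sequence before it. The P2cc bait (chr16:92698244-92698741) lay in intron 2 of the P1 transcript, with its centre 1.16 kb upstream of the P2 start. All 4 primers matched the genome with 0 differences, which gave the positions of both baits. That P2cc lies at a cohesin and CTCF site is taken from the study. A bait reads contacts from its *Dpn*II end, and that end lay 0.292 kb upstream of the P2 start for P2 and 1.44 kb upstream for P2cc. The *Dpn*II sites of the baits were thus 1152 bp apart, with 1 other *Dpn*II fragment between the bait fragments.

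The ends of the baits are shown because they define where each list was measured from. The letters are those of the GRCm38.p6 genome, which has the coordinates of mm10. At the *Dpn*II ends, on the plus strand, the capitals mark the *Dpn*II site at which contacts were joined:
P2 bait, chr16:92697581-92697624: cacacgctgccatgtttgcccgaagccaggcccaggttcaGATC
P2cc bait, chr16:92698724-92698776: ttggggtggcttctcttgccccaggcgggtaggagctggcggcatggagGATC
At the opposite ends, on the minus strand, the capitals mark the *Bfa*I site at which the circles were closed:
P2 bait, chr16:92697179-92697201: ccctttgcggctctttCTAGatc
P2cc bait, chr16:92698232-92698262: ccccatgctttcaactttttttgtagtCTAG
In the P2 bait the *Bfa*I site begins 3 bp inside the *Dpn*II fragment (442 bp) and overlaps the *Dpn*II site at its edge, so that the captured piece nearly coincides with the fragment. In the P2cc bait the *Bfa*I site lies 444 bp inside its *Dpn*II fragment (985 bp).

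The P2 bait contained the P2 promoter. The 250 bases before the P2 start site (chr16:92697330-92697579, minus strand, RefSeq promoter table on GRCm38.p6) lie wholly within the bait and are shown with each CpG in capitals:
P2 promoter: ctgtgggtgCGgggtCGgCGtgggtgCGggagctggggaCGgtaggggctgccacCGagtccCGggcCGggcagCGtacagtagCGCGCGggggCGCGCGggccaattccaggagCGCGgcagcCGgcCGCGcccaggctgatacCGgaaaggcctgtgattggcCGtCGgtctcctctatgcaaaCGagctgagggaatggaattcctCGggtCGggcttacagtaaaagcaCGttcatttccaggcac
It held 27 CpGs, a number that 8.57% of 32841 RefSeq promoters of the same length reached, and had a GC content of 67.6%. The P1 promoter (chr16:92826075-92826324) held 2 CpGs and had a GC content of 45.6%, beside a median of 6 CpGs over all promoters. The letters TGTGGT, the core bound by Runx proteins, were in neither promoter on either strand, and 14% of all promoters held them.

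Within the 1385.0 kb around *Runx1* in which the authors called contacts separately, called the domain here, there are 3221 *Dpn*II fragments. P2 listed 309 of them (9.59%) and P2cc 312 (9.69%). In both lists were 167 fragments, which is 5.18% of the domain's fragments and 36.8% of the 454 in either list (32.5 to 41.3%). That was 54.0% of the P2 fragments and 53.5% of the P2cc fragments, so the lists were alike in size and each bait had nearly as many fragments alone as in common: 142 for P2 and 145 for P2cc. In length, P2 covered 149 kb and P2cc 139 kb, of which 79.3 kb were in common.

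The category of a P2 fragment went with its presence in the P2cc list. Of 258 category 1 fragments of P2, 149 were also listed for P2cc (57.8%, 51.7 to 63.6%), against 18 of 51 that were not category 1 (35.3%, 23.6 to 49.0%). For P2cc fragments the order was the other way and the intervals overlapped, with 141 of 266 category 1 fragments in the P2 list (53.0%, 47.0 to 58.9%) and 26 of 46 others (56.5%, 42.2 to 69.8%). These shares of fragments were not tested, because fragments of 1 interaction are not independent. Of the 167 fragments in both lists, 129 were category 1 for both baits and 6 for neither.

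**Figure D1:**
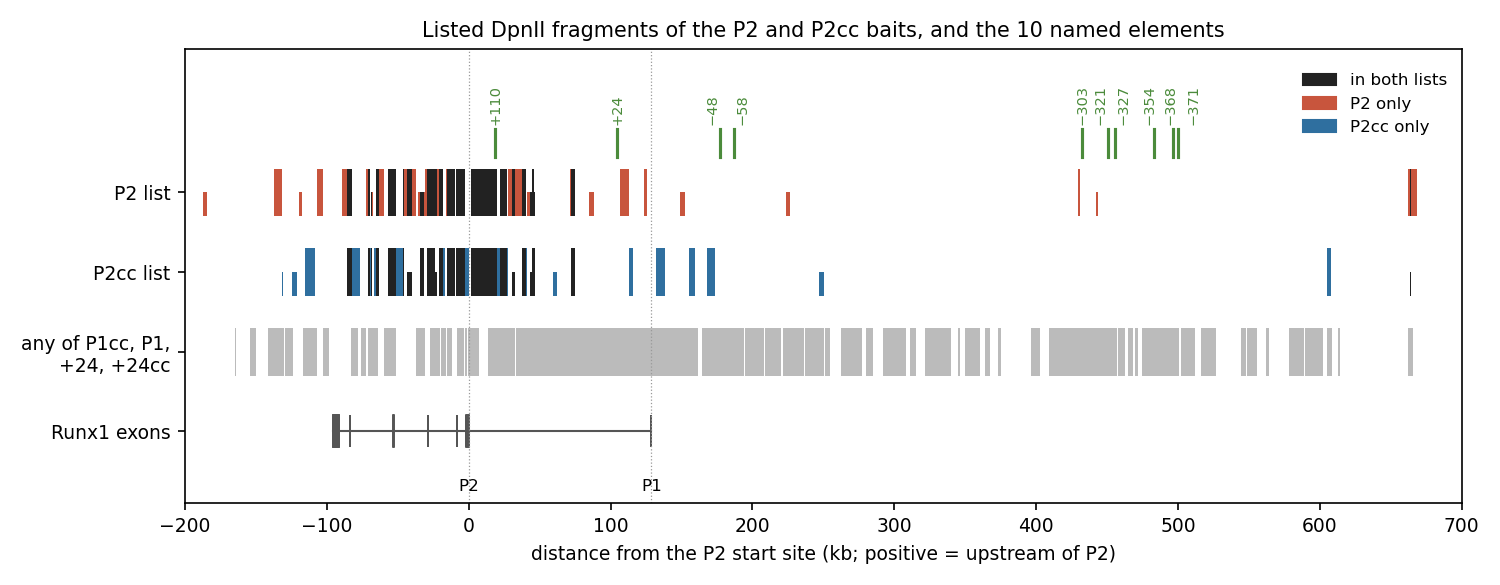
Listed *Dpn*II fragments along the domain, with the distance from the P2 start site in kb on the horizontal axis (positive is upstream). The upper rows show the P2 and P2cc lists in black where a fragment is in both lists, red where in P2 alone and blue where in P2cc alone, full height for category 1 and a lower bar otherwise; the grey row shows fragments listed for any of the other 4 baits, and green ticks mark the 10 named elements. Black lies almost wholly within 100 kb of the P2 start, and beyond that, where both lists are sparser, the red and blue bars fall at different places.

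Most of what the lists had in common lay close to P2, where both lists were dense. Of the 167 common fragments, 129 (77.2%) lay within 50 kb of the P2 start and 162 (97.0%) within 100 kb, and their median distance was 24.5 kb. Fragments listed for P2 alone had a median distance of 87.3 kb, with 53.5% within 100 kb. Those listed for P2cc alone had a median distance of 114 kb, with 40.7% within 100 kb. Fragments of 1 bait alone were found near the promoter too, with 39 of P2 and 34 of P2cc within 50 kb. Beyond 100 kb, where both lists were sparser than near the promoter, nearly all listed fragments belonged to 1 bait.

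Near the promoter contacts were dense. The 50 kb to each side of the P2 start hold 235 *Dpn*II fragments, of which P2 listed 168 (71.5%), P2cc 163 (69.4%) and both together 129 (54.9%). Only 33 (14%) were in neither list. These 33 lay in 9 stretches, of which 1 surrounds the baits themselves. Of the stretches, 8 lay wholly within 50 kb and were 60 to 1877 bp long, and the last (chr16:92744219-92756438), with 9 of the 33 fragments, ran on past 50 kb upstream to a length of 12.2 kb and 32 fragments. The unlisted fragments had a median length of 165 bp against 314 bp for the 202 listed ones, and 33.3% of them held a *Bfa*I site against 59.4%. The part of fragment length and *Bfa*I sites in the calls was not tested.

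With distance the lists had fewer fragments in common. Sparser lists can share fewer fragments, and the overlap that their densities alone would give was not computed. Out to 200 kb the shares of both lists fell from bin to bin, except that the P2cc share was higher from 100 to 200 kb upstream than from 50 to 100 kb, and beyond 200 kb each list held at most 1.53% of the fragments of a bin. From 50 to 100 kb downstream P2 listed 44.1% of 111 fragments and P2cc 43.2%, with 23.4% in both. From 50 to 100 kb upstream, in the *Runx1* intron towards P1, P2 listed 14.6% of 144 fragments and P2cc 6.94%. From 100 to 200 kb downstream P2 listed 23 (9.66%) and P2cc 26 (10.9%) of 238 fragments, with 1 fragment in both. At such shares few common fragments are to be had, so this count is not read as a result about the baits. From 100 to 200 kb upstream, where P1 lies, P2 listed 24 of 257 fragments (9.34%, 6.36 to 13.5%) and P2cc 51 (19.8%, 15.4 to 25.1%), again with 1 in both. Beyond 100 kb the lists had 5 fragments in common, 3 of them more than 500 kb upstream. More than 200 kb downstream within the domain neither list held any of 522 fragments, which allows a share of up to 0.575% when 3 fragments are taken as the limit of a count of 0, and up to 0.731% by the Wilson interval.

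**Figure D2:**
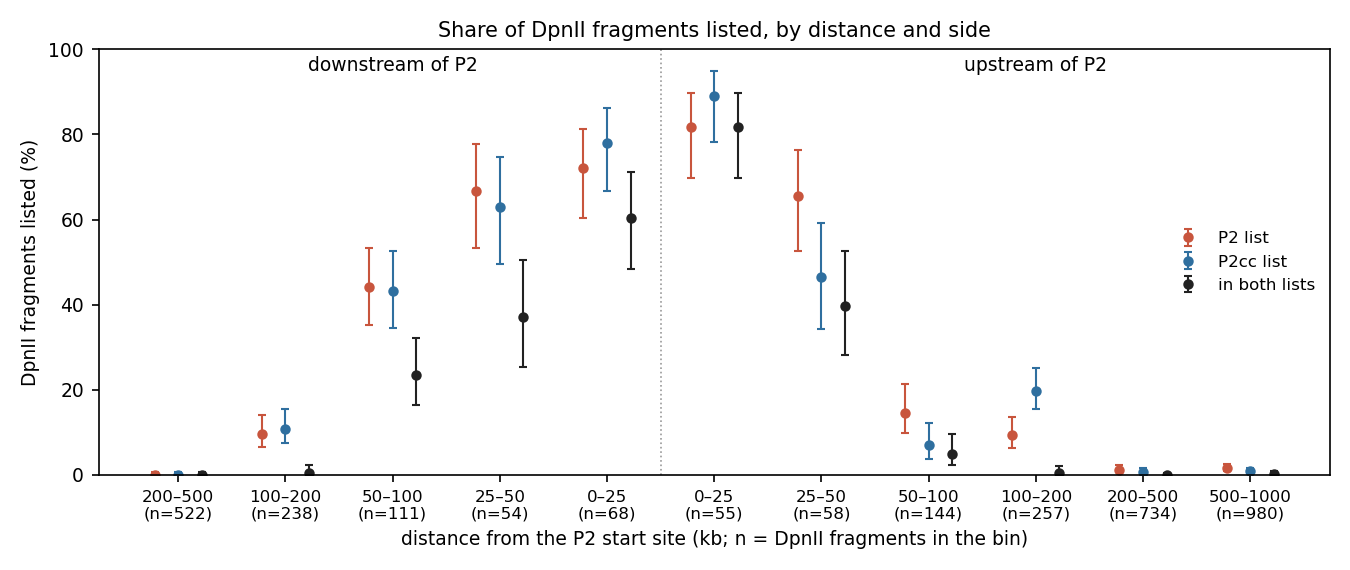
Share of the *Dpn*II fragments in each distance bin that were listed for P2 (red), for P2cc (blue) and for both (black), with 95% Wilson intervals; n under each bin is its number of *Dpn*II fragments. The lists have similar shares on the downstream side, and from 100 to 200 kb upstream the P2cc share (19.8%) is above the P2 share (9.34%) with 0.389% in both.

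Similar numbers of listed fragments lay on each side of the P2 start, although the sides of the domain are not alike in size. Upstream lay 152 of 309 P2 fragments (49.2%, 43.7 to 54.7%), 151 of 312 P2cc fragments (48.4%, 42.9 to 53.9%) and 79 of 167 common ones (47.3%, 39.9 to 54.9%). The domain reaches 938 kb upstream and 447 kb downstream, and 69.2% of its fragments are upstream. As a share of the fragments of each side, P2 listed 6.82% of 2228 upstream (5.85 to 7.95%) and 15.8% of 993 downstream (13.7 to 18.2%). P2cc listed 6.78% upstream (5.81 to 7.90%) and 16.2% downstream (14.1 to 18.6%). Within 100 kb, where both sides have the same reach, the downstream share was also the higher, at 57.5% of 233 fragments against 40.5% of 257 for P2 and 57.9% against 33.5% for P2cc. These shares of fragments were not tested. The farthest fragment of P2 lay 668 kb upstream and 187 kb downstream, and that of P2cc inside the domain 664 kb upstream and 132 kb downstream.

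To count contacts rather than fragments, abutting fragments were merged into interactions. P2 then had 30 interactions in the domain, of which 21 overlapped an interaction of P2cc. P2cc had 26, of which 18 overlapped one of P2. Joined across the baits these made 33 regions, 16 from both baits, 9 from P2 alone and 8 from P2cc alone. Overlap seldom meant the same edges: 3 interactions began at the same *Dpn*II site in both lists and 3 ended at the same one, but none had both edges in common. Of the 21 shared P2 interactions, 5 lay wholly within P2cc fragments, and of the 18 shared P2cc interactions, 6 lay wholly within P2 fragments.

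The longest contacts of both baits began at the same site just upstream of the promoter. For P2cc it ran over chr16:92699056-92724737, 25682 bp and 53 fragments, of which 53 were category 1. P2 had an interaction from the same first base, chr16:92699056-92716995, 17940 bp and 34 fragments, all of them also in the P2cc list. It then had a gap, and a further interaction (chr16:92719359-92724007, 14 fragments) inside the longer P2cc one. The third longest shared interaction, also of P2cc, was chr16:92640346-92651889 (11544 bp, 24 fragments), over exon 6, and the P2 interaction there began at the same base and ended at 92646150.

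Around each bait lay a stretch that its own list left empty. The authors removed uncut and self-ligated reads and reads on fragments with control reads before calling. It spanned 17 fragments and 4.45 kb for P2 (chr16:92694603-92699055) and 6 fragments and 1.88 kb for P2cc (chr16:92697179-92699055). Both ended upstream at the same base, and they differed downstream, where P2 had 11 empty fragments beyond its bait. All 11 were category 1 in the P2cc list, as the end of an interaction of 24 fragments (chr16:92688135-92697178). The list does not show whether reads on them were removed or were present and not called significant, and this was not tested.

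**Figure D3:**
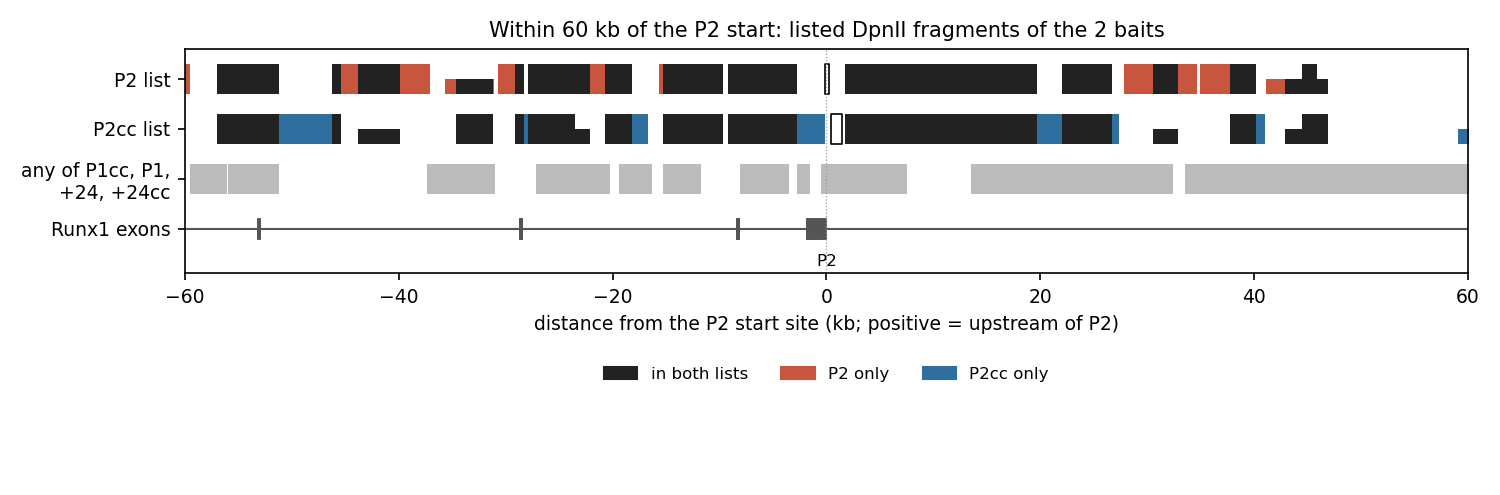
The same lists within 60 kb of the P2 start site, with distance in kb on the horizontal axis, the colours and heights as in the map of the domain, open boxes for the bait fragments and the *Runx1* exons below. The stretch between 0 and −2.7 kb is filled for P2cc and empty for P2, and the long black block upstream begins at the same place in both lists.

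The 9 interactions of P2 alone had a median length of 2606 bp against 5805 bp for its shared interactions. None lay within 50 kb of the P2 start. Any overlapping base made an interaction shared, and P2cc listed 69.4% of the fragments within 50 kb. Long or near interactions were thus more easily shared, so length and distance are not read as traits of P2 alone. Downstream of *Runx1* the interactions of P2 alone were chr16:92510139-92512744, in *Clic6*, with 2 fragments, chr16:92577748-92580116 with 2, and chr16:92590621-92594941 with 9. The last was the only one of these 3 with category 1 fragments, which were all 9. In the intron towards P1 lay chr16:92781967-92785848 (9 fragments, 0 category 1) and chr16:92820561-92823329 (5 fragments, 5 category 1). The latter ended 1.76 kb from the P1 bait fragment, in intron 2 of the P1 transcript. Upstream of the gene lay chr16:92846192-92849856 (8 fragments), chr16:92921272-92923591 (4 fragments), chr16:93126494-93128556 (3 fragments) and chr16:93139603-93140668 (2 fragments). Of these 4, chr16:93126494-93128556 alone had category 1 fragments, 3 of 3.

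The 8 interactions of P2cc alone in the domain had a median length of 3770.5 bp, close to the 3662 bp of its shared ones. None of them lay within 50 kb of the P2 start either. P2 listed 71.5% of the fragments there, so near interactions were again more easily shared. The interaction of P2cc alone with the most fragments was chr16:92829217-92835615, 21 fragments that were all category 1. It began just upstream of P1 and lay 0.133 kb from the bait fragment of P1cc. The interaction nearest to P1 thus lay upstream of P1 for P2cc and on the gene side for P2. Each bait also had one on the opposite side, chr16:92846192-92849856 for P2 and chr16:92810176-92813026 for P2cc. Farther upstream, of P2cc alone, lay chr16:92852834-92856660 (8 category 1 fragments), chr16:92865329-92870840 (17 category 1 fragments), chr16:92944127-92947840 (5 fragments, 0 category 1) and chr16:93302523-93305396 (6 category 1 fragments). In the intron towards P1 lay chr16:92756439-92759584 (3 fragments, 0 category 1). Downstream of *Runx1* lay chr16:92572869-92576006 (8 fragments, 0 category 1) and chr16:92581730-92588897 (14 category 1 fragments).

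Category 1 was rarer among the interactions of P2 alone. Of the 21 shared P2 interactions 18 held a category 1 fragment (85.7%, 65.4 to 95%), against 3 of the 9 of P2 alone (33.3%, 12.1 to 64.6%), a difference of 52.4 percentage points (15.1 to 75.6). In a two-sided exact test by Fisher's method p was 0.00835, and 0.0223 after adjustment over 8 tests. By the same exact test the difference was no longer past the threshold with interactions within 20 kb of the P2 start left out (adjusted p = 0.105) or fragments merged up to 5 kb apart (adjusted p = 0.0741). Shared interactions were also longer, with a median of 11 fragments against 4, and the part of length in this difference was not tested. For P2cc the numbers were 14 of 18 and 5 of 8, a difference of 15.3 points with an interval from −17.8 to 49.8 (Fisher's exact test, p = 0.635, adjusted p = 1). Whether the difference itself differed between the baits was not tested.

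By these counts the baits were not distinguished in position, but the 2 sets of interactions are not independent. Of them, 21 of 30 for P2 and 18 of 26 for P2cc overlap one of the other bait. All of those within 50 kb of the P2 start do. Small differences between the whole lists are therefore partly built in, and neither the tests nor the intervals allow for it. The share of interactions upstream of the P2 start was 15 of 30 for P2 and 13 of 26 for P2cc, a difference of 0 points (−24.6 to 24.6). Within 50 kb of the P2 start lay 12 of 30 and 10 of 26, a difference of 1.54 points (−22.9 to 25.4). Of the interactions of 1 bait alone, 6 of 9 for P2 and 6 of 8 for P2cc lay upstream, a difference of −8.33 points (−44.3 to 31.8). Each of these had an adjusted p of 1 by two-sided Fisher's exact test, and the intervals leave room for sizeable differences either way.

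Inside *Runx1* both lists held a larger share of the fragments in the introns downstream of P2 than of those in the intron between the promoters, when each is taken over its whole length. In the introns downstream of P2, P2 listed 127 of 197 fragments (64.5%) and P2cc 119 (60.4%), with 80 in both. In the intron between the promoters P2 listed 120 of 308 fragments (39.0%) and P2cc 91 (29.5%), with 76 in both. In the 25 kb next to P2, exons included, the order was the other way, with 81.8% upstream and 72.1% downstream for P2 and 89.1% and 77.9% for P2cc. These bins include the stretches left empty beside the baits. For P2 that was 5 fragments upstream and 11 downstream of its bait fragment, and for P2cc 3 and 2. Over the whole intron the P2 list had 44 fragments of its own between the promoters and P2cc 15. Counted as interactions, 21 of 30 for P2 and 17 of 26 for P2cc overlapped the gene, a difference of 4.62 points (−18.9 to 28.0; Fisher's exact test, p = 0.779, adjusted p = 1). Of these, 19 for P2 and 16 for P2cc were shared between the baits, so the 2 counts are not independent. Counted as single fragments, 254 of 309 overlapped the gene against 226 of 312, 9.76 points higher for P2 (adjusted p = 0.0128 by Fisher's exact test, with the dependence between neighbouring fragments ignored). The lists also have 167 of these fragments in common, so this p-value is not read as a result.

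Of the 29 fragments over *Runx1* exons, 7 were in both lists (24.1%), against 40.6% of the fragments in the introns downstream of P2, so the overlaps with exons are given as positions and not read as a result about exons. Exons 4, 5, 6 and 7 of the P1 transcript (NM_001111021.2), which both promoters share, were overlapped by listed fragments of both baits, all of them category 1. Exon 7 spans 3 fragments and exon 6 spans 2, and each of these was in both lists. The last exon, exon 8 (chr16:92601466-92606124), which ends the coding sequence, spans 11 fragments, and neither list held any of them. The nearest interaction there was 1.93 kb away for P2 and 5.26 kb for P2cc. At the 5′ end, exons 1 and 2 at P1 were in neither list, with the nearest P2 interaction 2.60 and 2.26 kb away.

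The first exon of the P2 transcript (NM_001111023.2, chr16:92695484-92697329) was where the baits differed. It holds exon 3 of the P1 transcript at its end and spans 10 *Dpn*II fragments. P2cc listed 9 of them, all 9 category 1, and P2 listed 0. The exon lies in the empty stretch beside the P2 bait, and 1 of its 10 fragments is the P2 bait fragment. In the intron that follows, 12 of 14 fragments were in the P2 list and 14 of 14 in the P2cc list.

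Of the 10 elements that the study named as enhancers or candidate enhancers by their distance in kb from P1, 3 lay within 2 kb of an interaction of either bait. Of the domain's bases 21.8% lay as near to one, beside which 3 of 10 is not read as a result about the elements. The +110 element, placed by its name at chr16:92715575-92716574, lies 18.7 kb upstream of P2 and was inside the long upstream interaction of both baits, with 5 of its fragments in each list. Most fragments this close to P2 were listed for both baits, so the lists do not single this element out. The +24 element, a known blood stem cell enhancer placed by its name alone at chr16:92801575-92802574, had a P2 interaction 1.36 kb away (chr16:92803934-92810642, 11 category 1 fragments). Its true edges are not known here, so this gap, and with it the place of +24 within the 2 kb limit, is uncertain. From P2cc the nearest to it was chr16:92810176-92813026, 7.60 kb away with 5 category 1 fragments. These interactions overlapped each other by 1 fragment, at the end away from +24, so what the baits had in common lay 7.60 kb from the element and outside the 2 kb limit.

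Of the 6 elements farthest upstream, the one nearest to P2 (chr16:93129158-93130143, 432 kb upstream of the P2 start) had an interaction of P2 alone within 2 kb. The P2 interaction chr16:93126494-93128556, with 3 category 1 fragments, ended 0.601 kb from it, while the nearest P2cc interaction was 172 kb away. All 3 fragments of this P2 interaction were also in the +24cc list, and 2 of them in the +24 list. The −48 element (chr16:92873823-92874806) lay outside 2 kb for both baits, and the nearest P2cc interaction, with 17 category 1 fragments, ended 2.98 kb from it against 24.0 kb for P2. For −58 the gaps were 12.8 kb for P2cc and 33.8 kb for P2. For the other 5 of the 6 far elements, 451 to 500 kb upstream of the P2 start, they ran from 6.91 to 56.4 kb for P2 and from 104 to 154 kb for P2cc. For all 5 these are gaps to the same interactions, chr16:93139603-93140668 of P2, which has 2 fragments and 0 category 1, and chr16:93302523-93305396 of P2cc, so they are not 5 separate contacts.

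**Figure D4:**
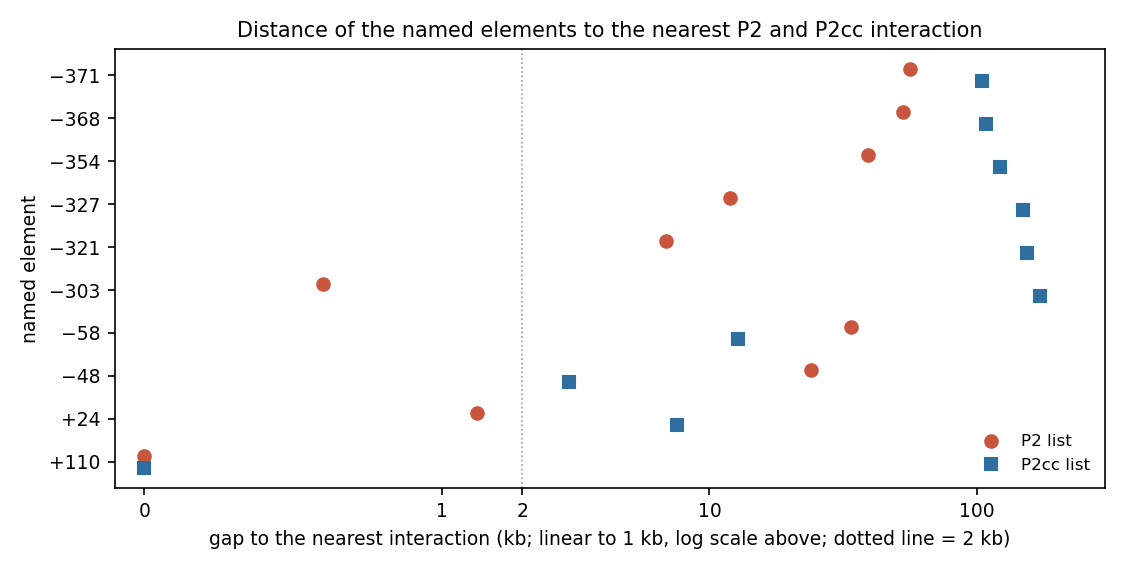
Gap in kb from each of the 10 named elements (rows, named by their distance from P1) to the nearest interaction of P2 (red circles) and P2cc (blue squares), linear to 1 kb and on a log scale above, with a dotted line at 2 kb. Left of the line are +110 for both baits and, for P2, +24 (1.36 kb) and the element 432 kb upstream of the P2 start (0.601 kb).

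Other genes were touched at few places. *Gm30224*, a non-coding RNA gene just downstream of *Runx1* (chr16:92583409-92596148), held 1 interaction of each bait at different places, with 9 category 1 fragments for P2 and 14 for P2cc. *Clic6*, which encodes a chloride channel protein, held 1 P2 interaction of 2 fragments, none category 1, and the nearest P2cc interaction was 24.3 kb away. The contact farthest upstream was common to both baits and lay before the start of the non-coding RNA gene *1810053B23Rik* (chr16:93343716-93359543, minus strand). P2 had 15 category 1 fragments there (chr16:93359575-93366066), and P2cc had 3 of these fragments (chr16:93360544-93361666), none category 1. *Setd4* and *Cbr1*, at the upstream border of the region, lay at least 217 kb from any interaction of either bait. Outside the domain, the P2cc list held 2 category 1 fragments in *Synj1* (chr16:90997809-90999458), which encodes a lipid phosphatase of the synapse, and the P2 list held none.

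One fragment of each kind is shown, with the *Dpn*II site at each end in capitals, on the plus strand of GRCm38.p6. The first is from the far contact before *1810053B23Rik* that both lists hold, and the other 2 are from the P2-only and the P2cc-only interaction nearest to P1:
in both lists, chr16:93361221-93361369: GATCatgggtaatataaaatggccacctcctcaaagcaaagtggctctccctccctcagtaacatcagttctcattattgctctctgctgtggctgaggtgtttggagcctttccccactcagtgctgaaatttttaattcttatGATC
P2 alone, chr16:92821411-92821581: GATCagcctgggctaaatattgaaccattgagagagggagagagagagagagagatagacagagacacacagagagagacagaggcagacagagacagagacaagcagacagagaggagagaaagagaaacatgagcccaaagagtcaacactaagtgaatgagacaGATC
P2cc alone, chr16:92830975-92831272: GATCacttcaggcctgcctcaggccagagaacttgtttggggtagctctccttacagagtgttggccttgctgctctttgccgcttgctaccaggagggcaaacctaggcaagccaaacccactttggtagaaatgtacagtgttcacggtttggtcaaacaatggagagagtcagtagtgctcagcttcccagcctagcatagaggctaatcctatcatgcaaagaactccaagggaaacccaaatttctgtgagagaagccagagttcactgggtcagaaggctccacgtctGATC
The first was category 1 for P2 and not for P2cc and was also listed for P1. The P2-only and P2cc-only fragments were category 1 for their own bait and were each listed for P1cc, P1, +24 and +24cc.

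The other 4 baits had listed many of the same fragments. Of all fragments in the domain, 39.2% were in the list of at least 1 of P1cc, P1, +24 and +24cc, against 76.6% of the 167 common fragments, 56.3% of the 142 of P2 alone and 75.9% of the 145 of P2cc alone. This depends on where the fragments lie, so the stretches are given apart. Upstream of P1, where the 4 baits listed 40.4% of all fragments, they had listed 57 of the 57 fragments of P2cc alone and 20 of the 29 of P2 alone. The P1 list held 56 of those 57 P2cc fragments and 16 of those 29 P2 fragments, against 15.3% of all fragments there. The 9 fragments of P2 alone there that none of the 4 baits listed all lay in 1 stretch, chr16:93359575-93366066. That P2 interaction overlaps one of P2cc. In the interactions of P2 alone upstream of the gene, every fragment was in some other list. Downstream of P2 the counts over the 4 baits together were 38 of 73 for P2cc alone and 19 of 69 for P2 alone, against 19% of all fragments. In the P1cc list were 21 of those 73 and 9 of those 69, against 4.73% of all fragments there, and in the P1 list 1 of 73 and 0 of 69, against 1.01%. The +24 list held 16 of 73 and 10 of 69, against 8.16% of all fragments there. In the +24cc list the order was the other way, with 15 of 73 and 18 of 69, against 13.7%. Between the promoters 96.1% of all fragments were in some other list, and the classes cannot be told apart by it. By single list, P1 held 14.5% of common fragments, 38.6% of P2 alone and 33.3% of P2cc alone, against 27.7% of all fragments there. In the same order P1cc held 10.5, 13.6 and 33.3% against 21.3%. The +24 list held 67.1, 79.5 and 66.7% against 71.9%, and +24cc 76.3, 86.4 and 100% against 79.7%. Only 15 fragments there were of P2cc alone. These are shares of neighbouring fragments and were not tested.

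**Figure D5:**
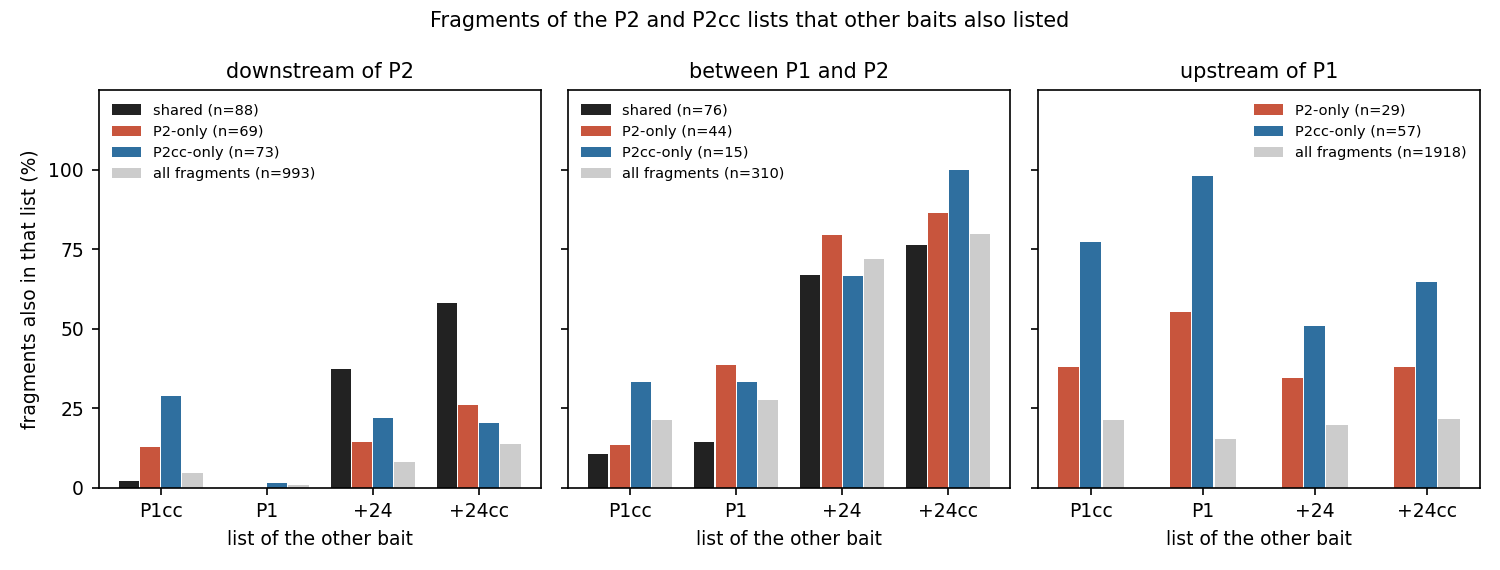
Percentage of fragments in both lists (black), in P2 alone (red) and in P2cc alone (blue) that were also listed for P1cc, P1, +24 or +24cc, in the stretches downstream of P2, between the promoters and upstream of P1, with all *Dpn*II fragments of the stretch in grey; the 3 common fragments upstream of P1 are not drawn. Upstream of P1 the blue bars stand above the red ones for each bait, with 98.2% against 55.2% in the P1 list.

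Seen from the opposite side, contacts between the +24 baits and the P2 baits were not mutual in the lists. The +24 and +24cc lists both held the bait fragments of P2 and of P2cc, as category 1 for +24 and not for +24cc. The P2 and P2cc lists held neither the +24 nor the +24cc bait fragment, with gaps of 1.77 kb from P2 and 8.01 kb from P2cc to the +24 bait fragment. Of all fragments between the promoters, +24 listed 71.9% and +24cc 79.7%. From 100 to 200 kb upstream, where the +24 baits lie, P2 listed 9.34% of all fragments and P2cc 19.8%. Beside these shares the lack of mutual listing is not read as a result about these sites. Between the promoters neither side listed the other's bait fragments. The nearest P1 interaction was 13.4 kb from the P2 bait fragment and the nearest P1cc interaction 23.7 kb, whereas the nearest P2 interaction was 1.76 kb from the P1 bait fragment and the nearest P2cc interaction 0.133 kb from that of P1cc. P2 and P2cc did not list each other's bait fragment, and both bait fragments lie in the empty stretches.

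Interactions of the P2 and P2cc baits were more often near their bait than those of the other baits when each bait was pooled with its cc bait, but not past the threshold without pooling. Within 50 kb of the bait lay 22 of 56 interactions of P2 and P2cc together (39.3%, 27.6 to 52.4%), 13 of 80 of P1 and P1cc (16.2%, 9.75 to 25.8%) and 19 of 111 of +24 and +24cc (17.1%, 11.2 to 25.2%). Pooling counts a contact that both baits of a pair share more than once, as for the 21 of 30 and 18 of 26 shared interactions of P2 and P2cc, so the pooled p-values are too small. The difference was 23.0 points against the P1 baits (7.90 to 37.6; p = 0.00481 by Fisher's exact test, two-sided, adjusted p = 0.0192) and 22.2 points against the +24 baits (7.95 to 36.5; p = 0.00232 by the same exact test, adjusted p = 0.0186). With category 1 alone both were still higher for P2 but not past the threshold (adjusted p = 0.0628 and 0.139, exact test), and with fragments merged up to 5 kb apart the differences were 0.375 and 3.55 points. Unpooled, P2 against P1 and against +24 gave differences of 22.9 and 19.6 points (adjusted p = 0.143 and 0.197, exact test), and P2cc against P1cc and +24cc 22.9 and 24.4 points (adjusted p = 0.115 and 0.0541, exact test). Merging up to 1 kb and a limit of 20 kb also left both pooled comparisons short of the threshold. The +24 libraries were also cut with another second enzyme, *Mse*I in place of *Bfa*I, whose part was not tested.

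In length the fragments of the classes overlapped widely. The median was 382 bp for fragments in both lists (quartiles 156 and 726 bp), 314 bp for those of P2 alone (136 and 696 bp) and 280 bp for those of P2cc alone (109 and 511 bp), against 288 bp over the domain. A *Bfa*I site was present in 65.3% (57.8 to 72.1%), 54.2% (46.0 to 62.2%) and 46.2% (38.3 to 54.3%) of them, against 53.9% over the domain. Their median GC content was within 46.7 to 46.9% in each class. The intervals for *Bfa*I sites overlapped between fragments in both lists and those of P2 alone, and did not overlap between fragments in both lists and those of P2cc alone. Neither property was tested between the classes.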

How the data were processed

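The assay was 4C-seq, run on HPC-7 cells. Per the methods, 125 bp paired reads were split by bait, trimmed, and mapped (at least 30 bp, 0 mismatches) to mm10 with Bowtie. Reads were assigned to *Dpn*II fragments, and self-ligated reads, uncut reads and fragments with 1 or more control reads were removed. The authors called significance with fourSig in each replicate (window 3, 1000 iterations, fdr 0.01, fdr.prob 0.05), over chromosome 16 and over 92250000 to 93635000, and intersected the replicates. The score that the authors deposited is 1000 in every row and is no measurement. Read depth is unknown.

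Fragments were compared on GRCm38.p6, abutting fragments were merged, and positions were taken at midpoints. Primers were located with edlib 1.3.9.post1, and −368, +24 and +110 were placed by name with 500 bp to each side. The element that the text places 432 kb upstream of the P2 start is −303, and the 5 beyond it are −321, −327, −354, −368 and −371. Shares were compared with two-sided Fisher's exact tests (scipy 1.17.1, Benjamini-Hochberg over 8 tests, threshold 0.05), which was tested on simulated data. Named interactions were those within 2 kb of an element, over a *Runx1* exon, outside *Runx1*, or the 3 longest of a class, and a few others were picked once their values were known; named genes were those overlapped, or with an overlap within 2 kb upstream, plus *Clic6*, *Setd4* and *Cbr1*. The comparison and lists were chosen with earlier results of these data known. Alternatives concerned merging, category, distance limits, the definition of sharing and the cc baits.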

Additional observations from a re-analysis of the deposited data

How the results depend on the processing

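Of 74 alternatives over 12 results, 48 kept the direction and the side of the threshold, or the value within its interval. No paired analysis was possible because the deposited lists hold 1 set of calls per bait, intersected over replicates, with no column for a single replicate, so no replicate could be left out either. The cause of the changes below was not tested.

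The share of common fragments fell from 36.8% to 27.2% with the 20 kb around P2 left out. The share of P2 interactions shared with P2cc fell from 70.0% to 40% with fragments merged up to 5 kb apart and to 43.3% when at least 50% of the bases had to be common, and that of P2cc interactions from 69.2% to 50% with merging up to 5 kb. Directly overlapped elements numbered 1 in place of 3.

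The difference within 50 kb of the P2 start (1.54 points) changed sign at −0.531, −9.91 and −5.83 points with merging up to 10 bp, 1 kb and 5 kb, and at −5.38 points with a limit of 20 kb. The difference within the gene (4.62 points) was −3.13 and −3.75 points with merging up to 1 and 5 kb, and 9.76 points, past the threshold, with single fragments, which are not independent.

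Category 1 in shared against P2-only interactions missed the threshold at 66.7 points (merging up to 5 kb) and 42.4 points (20 kb around P2 left out). Nearness to the bait missed it against the P1 baits at 14.3 and 0.375 points (merging up to 1 and 5 kb), 23.4 (category 1 only), 3.75 (20 kb limit), 22.9 (without cc baits) and 22.9 (cc baits alone), and against the +24 baits at 16.8, 3.55, 19.6, 8.00, 19.6 and 24.4 points, in the same order.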
